A study of Homo sapiens with 15 samples.

Results

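The BCL2 family decides whether the mitochondria of a cell release the proteins that start apoptosis, and 10 of its genes were followed here in MDA-MB231, a line of triple-negative breast cancer cells. The 10 genes were chosen by name, as BCL2, BCL2L1, MCL1, BAX, BAK1, BIK, PMAIP1, BCL2L11, BID and BBC3, by a rule that uses no measured value. All 10 are on the arrays, out of 30988 genes, with 22 probes in 58 spots. Each of 15 Agilent arrays carried treated cells in Cy5 and control cells in Cy3, with no exchange of dyes, in 5 biological replicates of each treatment. shCtBP2 cells were stably transfected with a short hairpin RNA against CTBP2 and selected with puromycin. The HIPP and P4 cells received one of these inhibitors of CtBP for 24 h. HIPP and P4 are sodium salts of phenylpropanoate that differ in their nitrogen group, an oxime in HIPP and a hydrazone in P4. The methods give different concentrations for them, so their values are set side by side without a test. In the sample labels the Cy3 cells are untreated on all arrays, but the methods describe scrambled control cells for shCtBP2. Nothing in either says whether the arrays shared a control extract.

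CtBP1 and CtBP2 are co-repressors that bind NADH and hold chromatin-modifying enzymes at promoters, and several proapoptotic genes of this family have been reported among the genes they repress. Within the family, BCL2, BCL2L1 (BCL-XL) and MCL1 protect the mitochondrial outer membrane, whereas BAX and BAK1 form the pores that let cytochrome c out. The BH3-only members BCL2L11 (BIM), BBC3 (PUMA), PMAIP1 (NOXA), BIK and BID carry stress signals to both sides, by occupying the protective members or by activating the pore formers.

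The genes that moved most are shown first by their promoters. From the promoter table of RefSeq on GRCh38.p14, which holds 8 of the 10 members, the 250 bases upstream of the start are given for BCL2L11 and BBC3, which rose with HIPP, and for BCL2L1 and BID, which fell with both inhibitors. For BCL2L1 and BID the entry with the start farthest upstream is shown. Capitals mark matches, on either strand, to any of 4 motifs chosen after the values were seen: CACCTG, bound by the ZEB repressors that recruit CtBP, CACCC, bound by KLF factors, GTAAACA, bound by FOXO factors, and TGATGNAA, bound by ATF4 with C/EBP partners.
BCL2L11 (chr2:111120664-111120913, plus strand): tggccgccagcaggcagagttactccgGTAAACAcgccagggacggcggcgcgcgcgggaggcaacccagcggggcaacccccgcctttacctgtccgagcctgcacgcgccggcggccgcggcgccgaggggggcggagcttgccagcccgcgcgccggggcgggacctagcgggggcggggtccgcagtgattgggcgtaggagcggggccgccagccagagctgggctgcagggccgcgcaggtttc
BBC3 (chr19:47232668-47232917, minus strand): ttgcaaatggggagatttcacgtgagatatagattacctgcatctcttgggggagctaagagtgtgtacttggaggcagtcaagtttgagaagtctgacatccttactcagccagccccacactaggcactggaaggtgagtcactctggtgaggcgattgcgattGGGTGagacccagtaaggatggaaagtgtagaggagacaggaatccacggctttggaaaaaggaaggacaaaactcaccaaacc
BCL2L1 (chr20:31723964-31724213, minus strand): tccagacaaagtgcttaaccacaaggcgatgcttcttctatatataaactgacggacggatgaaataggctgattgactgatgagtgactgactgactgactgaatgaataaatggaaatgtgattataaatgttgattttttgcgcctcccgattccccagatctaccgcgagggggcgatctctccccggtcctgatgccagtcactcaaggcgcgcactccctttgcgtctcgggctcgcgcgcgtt
BID (chr22:17774666-17774915, minus strand): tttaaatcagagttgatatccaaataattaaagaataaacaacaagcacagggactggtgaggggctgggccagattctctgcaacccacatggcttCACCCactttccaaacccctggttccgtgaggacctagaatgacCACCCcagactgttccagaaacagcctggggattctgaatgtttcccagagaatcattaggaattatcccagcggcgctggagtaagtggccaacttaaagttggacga
BCL2L11 had 1 match to GTAAACA, a motif found in 2.98% of the 35116 promoter entries searched over the same length. BBC3 had 1 and BID had 2 matches to CACCC, which 54.7% of the entries hold. The BCL2L1 entry shown had 0 matches to the 4 motifs, whereas matches to CACCC numbered 2 in the other BCL2L1 entry. CACCTG, found in 17.5% of the entries, and TGATGNAA, found in 3.14%, were in none of the 4 windows, which says only that these letters are not there. Over the members with an entry, CACCTG was found in the window of BAX alone.

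In the treated channel 65.2 to 77.5% of gene spots stood well above background, in the control channel 64.9 to 81.0%, and 0 were saturated. Which channel had the higher share varied between arrays within each treatment. On P4 replicate 1 it was 72.9% treated and 66.4% control, and on P4 replicate 3 67.6% and 75.8%. Across genes, the log2 ratios of P4 replicates 1 and 3 correlated at only 0.012, whereas every other pair of arrays within a treatment reached at least 0.3. The arrays lay on 4 slides: P4 replicates 1 to 4 on slide 1, P4 replicate 5 with HIPP replicates 1 to 3 on slide 2, HIPP replicates 4 and 5 with shCtBP2 replicates 1 and 2 on slide 3, and shCtBP2 replicates 3 to 5 on slide 4. Vimentin, CD44, AXL, CAV1 and TGFBI, which mark MDA-MB231 cells, were well above background in both channels of all 15 arrays, and PGR, CDH1, KRT5 and DSG3 in neither channel of any. The luminal markers GATA3 and KRT19 and the basal markers KRT14 and CDH3 were also above background in both channels of all 15 arrays. ESR1, which defines estrogen receptor-positive cells, was well above background in the treated channel of 12 and the control channel of 11 arrays, by at least 1 of its 3 probes, and the basal marker TP63 in that of 1 and of 3. The log2 ratio of CTBP2, the targeted gene, was −0.36, −0.35, −0.59, −0.44 and −0.29 on the 5 shCtBP2 arrays, a mean of −0.41 ± 0.11 (n = 5, SD, limma adjusted p = 0.0595) or 75.4% of the control. This gene mean was lower on 5 of 5 arrays without passing the adjusted threshold. Of its 2 probes on chromosome 10, the one on the 5′ side (126671814 to 126671873) passed, at −0.39 ± 0.17 (limma adjusted p over all probes = 0.0171), and the one on the 3′ side (126667460 to 126667519) did not, at −0.42 ± 0.14 (limma adjusted p over all probes = 0.152). With HIPP the CTBP2 log2 ratio was 0.57 ± 0.36 (n = 5, SD, limma adjusted p = 0.00256), and both probes were above 0. With P4 it was 0.17 ± 0.35 (n = 5, SD, limma adjusted p = 0.344), which joins −0.19 ± 0.15 (limma adjusted p over all probes = 0.145) for the first probe and 0.53 ± 0.56 (limma adjusted p over all probes = 0.0446) for the second.

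Each log2 ratio below is that of treated over control signal, averaged over the probes of a gene, and was tested against 0 with limma over all 15 arrays at an adjusted p of 0.05. Differentially expressed genes also passed the fold change that the methods set, 1.5 for shCtBP2, 2.5 for HIPP and 1.8 for P4. A dye effect of a gene stays in such a ratio and cancels in the difference between treatments. The 11% of genes with the least varying signals were not tested, as in the methods. This left out BAX and BAK1 for shCtBP2, MCL1 and BAK1 for HIPP and PMAIP1 for P4, whose values are given without a test. Probe positions are on hg17, as in the annotation of the arrays, which places the probes without naming exons.

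In shCtBP2 cells BCL2L11 was the one member differentially expressed, and it fell. The 5 arrays gave BCL2L11 log2 ratios of −0.28, −0.78, −0.73, −1.09 and −0.75, all below 0. Its mean was −0.73 ± 0.29 (n = 5, SD, limma adjusted p = 0.00676), or 60.5% of the control. BIK fell and PMAIP1 rose past the adjusted threshold without reaching the fold change of 1.5. Of the 8 members tested, 1 was thus differentially expressed, 3 passed the adjusted threshold (1 higher and 2 lower) and 5 did not. Among all 27579 genes tested, 3.34% were differentially expressed and higher and 3.23% lower. At the adjusted threshold alone 6.59% were higher and 6.95% lower. The fall of BCL2L11 did not pass after normexp correction and loess (−0.14, limma adjusted p = 0.339), with slide as a block (−0.61, limma adjusted p = 0.188) or by the methods' t-test, which sets the treated channel against the control channel over the arrays of 1 treatment (Benjamini-Hochberg adjusted p = 0.0542 at the same mean).

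With HIPP none of the members reached the fold change of 2.5, but 6 of the 8 tested passed the adjusted threshold, 4 of them higher and 2 lower. BCL2L11, BBC3, PMAIP1 and BIK rose, all of them BH3-only genes, and BCL2L1 and the BH3-only gene BID fell. Of all genes tested, 24.9% were higher and 23.9% lower at the adjusted threshold, and 3.43% and 3.62% when the fold change was also required. With P4, 9 members were tested and 1, BCL2L1, was differentially expressed, and it fell. At the adjusted threshold BBC3 and BIK rose, BCL2L1, BID and BAX fell, and 4 members did not pass. The shares over all genes with P4 were 17.1% higher and 14.9% lower at the adjusted threshold and 4.29% and 4.17% with the fold change. Over the 10 members the median was 0.029 for shCtBP2, 0.15 for HIPP and 0.0048 for P4 (log2 ratio), beside 0.038, 0.081 and 0.11 over all genes tested.

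**Figure D1:**
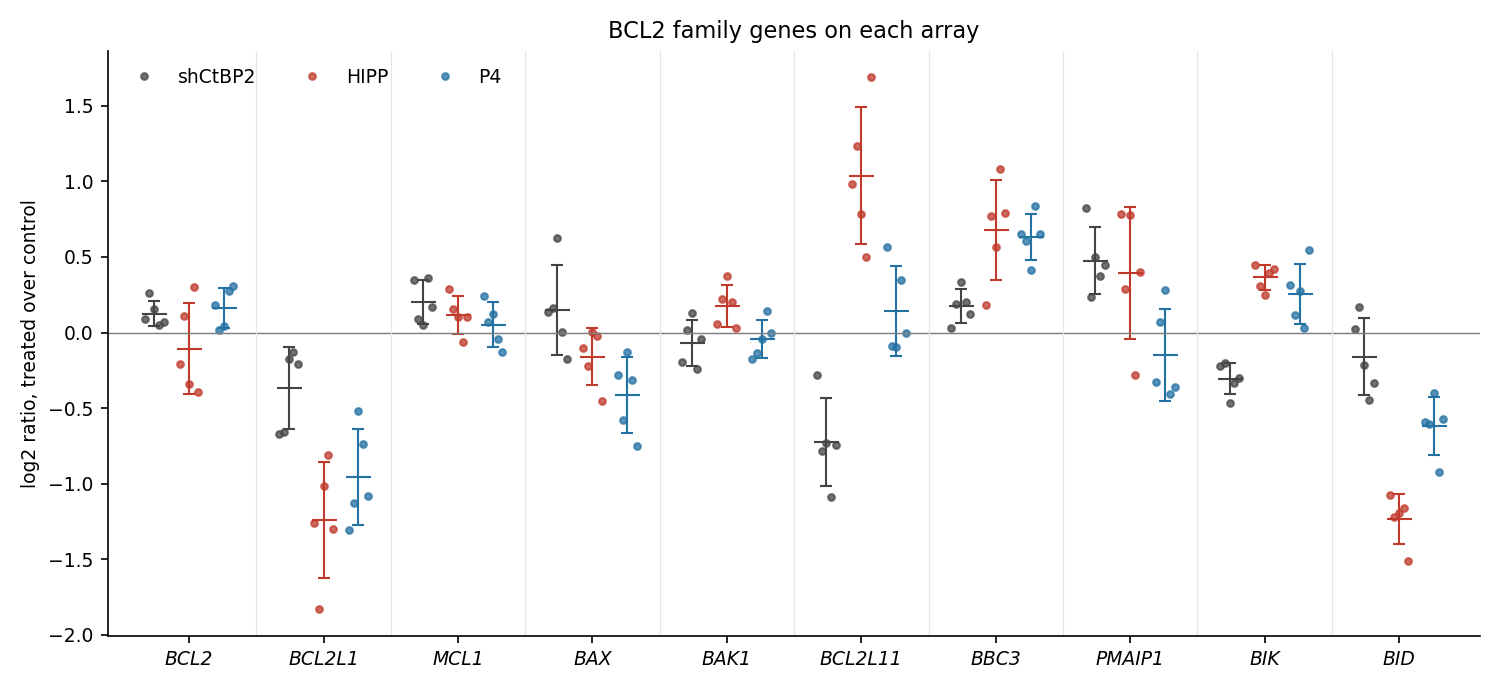
Log2 ratio of treated over control signal (y axis) for the 10 members (x axis), with 1 point for each of the 5 arrays of a treatment, in order of replicate, and bars for the mean ± SD. BCL2L11 lies below 0 on all shCtBP2 arrays and above 0 on all HIPP arrays, and BCL2L1 lies below 0 on all 15.

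Among the protective members, BCL2L1 fell with both inhibitors. The BCL2L1 log2 ratio was −1.26, −1.83, −1.02, −0.81 and −1.30 on the HIPP arrays, a mean of −1.24 ± 0.38 (n = 5, SD, limma adjusted p = 6.46e-06). On the P4 arrays it was −1.31, −1.13, −0.52, −0.74 and −1.09, a mean of −0.96 ± 0.32 (n = 5, SD, limma adjusted p = 0.000243). On the shCtBP2 arrays it was −0.67, −0.66, −0.17, −0.13 and −0.21, a mean of −0.37 ± 0.27 (n = 5, SD, limma adjusted p = 0.108), which did not pass, although it did with the brightest probe (−0.44, limma adjusted p = 0.0268) and with replicate number as a block (−0.37, limma adjusted p = 0.021). All 15 values were below 0, and the HIPP values did not overlap those of shCtBP2 cells. In HIPP cells the BCL2L1 signal was thus 42.2% of the control and in P4 cells 51.6%. After normexp correction and loess the falls were smaller and still passed, at −0.58 (limma adjusted p = 0.000136) with HIPP and −0.64 (limma adjusted p = 0.000117) with P4. With slide as a block BCL2L1 no longer passed with P4 (−0.76, limma adjusted p = 0.0916). On slide 3, which shCtBP2 and HIPP share, the means were −0.67 for shCtBP2 and −1.06 for HIPP. On slide 4 the shCtBP2 mean was −0.17. The 2 probes of BCL2L1 on chromosome 20, from 29773576 to 29773635 and from 29716985 to 29717044, were both below 0 in every treatment, with means of −1.27 ± 0.53 and −1.22 ± 0.28 with HIPP.

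BCL2 and MCL1, the other protective members, did not pass the adjusted threshold by their gene means in any treatment in which they were tested. The gene mean of BCL2 in shCtBP2 cells was 0.13 ± 0.085 (n = 5, SD, limma adjusted p = 0.453), that with HIPP −0.11 ± 0.30 (n = 5, SD, limma adjusted p = 0.387) and that with P4 0.16 ± 0.13 (n = 5, SD, limma adjusted p = 0.211). With HIPP this mean joins probes that moved apart. The BCL2 probe on the 5′ side (chromosome 18, 59136115 to 59136150) had a log2 ratio of 0.75 ± 0.57 (limma adjusted p over all probes = 0.00106) and was higher on 5 of 5 arrays, and the probe on the 3′ side (58941703 to 58941762) had −0.96 ± 0.51 (limma adjusted p over all probes = 6.29e-05) and was lower on 5 of 5. In the same order these BCL2 probes had −0.066 ± 0.17 and 0.32 ± 0.21 in shCtBP2 cells and 0.34 ± 0.19 and −0.011 ± 0.11 with P4. MCL1, the short-lived protective member, had a gene mean in shCtBP2 cells of 0.20 ± 0.15 (n = 5, SD, limma adjusted p = 0.118). With HIPP, where it was not tested, its mean was 0.12 ± 0.13 (n = 5, SD), and P4 gave 0.053 ± 0.15 (n = 5, SD, limma adjusted p = 0.642). Its 3 probes on chromosome 1 were also split with HIPP, at 0.77 ± 0.49 (limma adjusted p over all probes = 0.00133) for the one on the 5′ side (147363811 to 147363870), −0.28 ± 0.21 (limma adjusted p over all probes = 0.0746) for the next (147360695 to 147360754) and −0.14 ± 0.11 (limma adjusted p over all probes = 0.31) for the last (147360301 to 147360360). With P4 the first MCL1 probe had 0.64 ± 0.45 (limma adjusted p over all probes = 0.00947) and was higher on 5 of 5 arrays, whereas the next had −0.43 ± 0.36 and the last −0.052 ± 0.30 (limma adjusted p over all probes = 0.749), each lower on 4 of 5, so that the P4 mean also joins opposite probes. In shCtBP2 cells the MCL1 probes lay together, with means from 0.17 to 0.26. The cause of the splits between probes was not tested.

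The pore former BAX showed the same kind of split with both inhibitors. The BAX log2 ratio, averaged over 3 probes on chromosome 19, was −0.28, −0.58, −0.13, −0.32 and −0.75 on the P4 arrays, a mean of −0.41 ± 0.25 (n = 5, SD, limma adjusted p = 0.0152). HIPP gave −0.16 ± 0.19 (n = 5, SD, limma adjusted p = 0.271) and shCtBP2 0.15 ± 0.30 (n = 5, SD). The fall with P4 no longer passed without P4 replicate 2 (−0.37, limma adjusted p = 0.051), without P4 replicate 5 (−0.33, limma adjusted p = 0.0769), with slide as a block (−0.71, limma adjusted p = 0.0746), with separate fits of the treatments (limma adjusted p = 0.0729) or by the methods' t-test (adjusted p = 0.286). The mean of BAX with P4 also joins opposite probes. The probe on the 5′ side (54150541 to 54150600) had 0.66 ± 0.42 (limma adjusted p over all probes = 0.0185), the next (54150770 to 54150829) had −0.85 ± 0.39 (limma adjusted p over all probes = 0.00334) and the one on the 3′ side (54156716 to 54156775), printed in 10 spots, had −1.05 ± 0.36 (limma adjusted p over all probes = 0.000132). With HIPP the 3 BAX probes had 0.80 ± 0.60 (limma adjusted p over all probes = 0.00335), −0.67 ± 0.51 (limma adjusted p over all probes = 0.00796) and −0.60 ± 0.31 (limma adjusted p over all probes = 0.00339) in that order, and in shCtBP2 cells −0.032 ± 0.31, 0.17 ± 0.41 and 0.31 ± 0.32. The direction given for BAX therefore depended on the probe: with the brightest probe in place of the mean it was 0.66 (limma adjusted p = 0.0188) with P4 and 0.80 (limma adjusted p = 0.00349) with HIPP. BAK1, the other pore former, has 1 probe (chromosome 6, 33648563 to 33648622) and did not pass with P4, at −0.043 ± 0.12 (n = 5, SD, limma adjusted p = 0.709). Its untested means were 0.18 ± 0.14 (n = 5, SD) with HIPP and −0.068 ± 0.15 (n = 5, SD) in shCtBP2 cells.

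**Figure D2:**
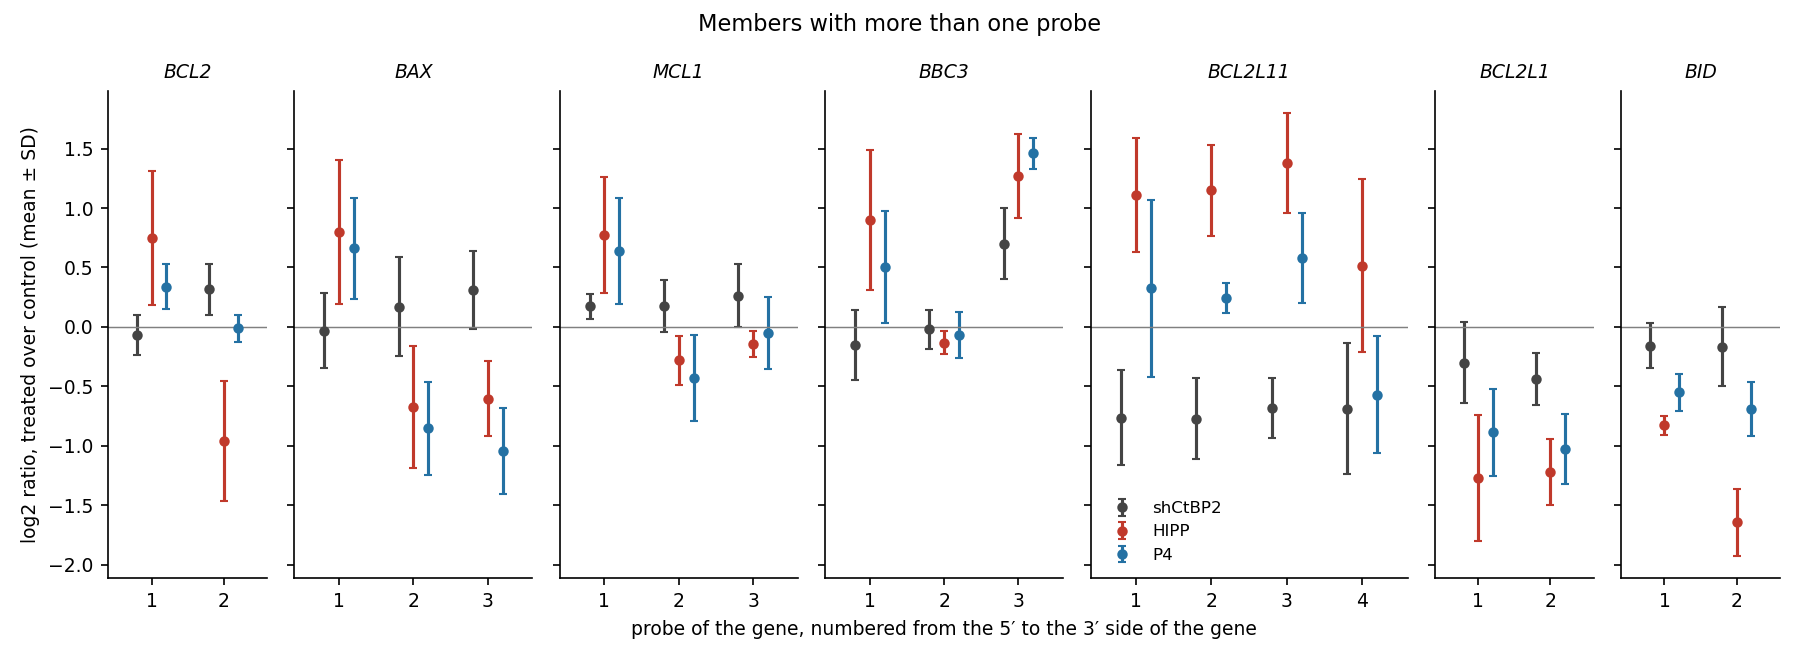
Mean log2 ratio ± SD over the 5 arrays of a treatment (y axis) for each probe of the 7 members with more than 1 probe, numbered from the 5′ to the 3′ side of the gene (x axis). The probes of BCL2L1 and BID lie on the same side of 0 within every treatment, whereas those of BCL2, MCL1, BAX and BBC3 lie on both sides with HIPP and P4, as do those of BCL2L11 with P4 and those of BCL2, BAX and BBC3 in shCtBP2 cells.

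BCL2L11, whose product BIM binds every protective member, moved in opposite directions in shCtBP2 and HIPP cells. The BCL2L11 log2 ratio was 0.98, 1.24, 0.79, 0.50 and 1.69 on the HIPP arrays, above 0 on every array, with a mean of 1.04 ± 0.45 (n = 5, SD, limma adjusted p = 6.38e-05). On the P4 arrays it was 0.57, −0.092, −0.098, 0.35 and −0.0018, on both sides of 0, with a mean of 0.14 ± 0.30 (n = 5, SD, limma adjusted p = 0.488). After normexp correction and loess the rise with HIPP was smaller and still passed (0.34, limma adjusted p = 0.0056). The lowest HIPP value lay above the highest shCtBP2 value given above, so that the groups did not overlap, and the same held for P4 against shCtBP2. BCL2L11 has 4 probes on chromosome 2, of which the middle ones (111637949 to 111638008 and 111637963 to 111638022) overlap and share sequence. The first 3 probes were well above background in both channels of all shCtBP2 and HIPP arrays, with means of −0.76 ± 0.40, −0.77 ± 0.34 and −0.68 ± 0.25 in shCtBP2 cells and 1.11 ± 0.48, 1.15 ± 0.38 and 1.38 ± 0.42 with HIPP. The last probe, from 111639796 to 111639855, was well above background in neither channel of any shCtBP2 array and had a mean of 0.52 ± 0.73 with HIPP. With P4 the first 3 BCL2L11 probes had 0.32 ± 0.75, 0.24 ± 0.13 and 0.58 ± 0.38 and the dim last probe −0.57 ± 0.49. With the brightest probe alone the P4 value passed (0.58, limma adjusted p = 0.0112).

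BBC3, which encodes PUMA, rose with both inhibitors by the limma fit. The BBC3 log2 ratio was 0.18, 0.77, 0.57, 1.08 and 0.79 on the HIPP arrays, with a mean of 0.68 ± 0.33 (n = 5, SD, limma adjusted p = 0.000111). On the P4 arrays it was 0.65, 0.60, 0.41, 0.84 and 0.65, with a mean of 0.63 ± 0.15 (n = 5, SD, limma adjusted p = 0.000579). In shCtBP2 cells it was 0.027, 0.19, 0.34, 0.20 and 0.12, with a mean of 0.18 ± 0.11 (n = 5, SD, limma adjusted p = 0.312), which did not pass, and HIPP replicate 1 lay within the range of the shCtBP2 arrays, whereas all P4 arrays lay above it. By the methods' t-test BBC3 passed with neither inhibitor (adjusted p = 0.0932 with HIPP and 0.167 with P4), and with the brightest probe it did not pass with P4 (0.51, limma adjusted p = 0.0638). The 3 BBC3 probes on chromosome 19 took unequal parts in this. The probe on the 3′ side (52416014 to 52416073) was the highest in every treatment, at 0.70 ± 0.30 (limma adjusted p over all probes = 0.00243) in shCtBP2 cells, 1.27 ± 0.35 (limma adjusted p over all probes = 1.29e-06) with HIPP and 1.46 ± 0.13 (limma adjusted p over all probes = 2.44e-06) with P4. The middle probe (52416927 to 52416986) had −0.13 ± 0.10 (limma adjusted p over all probes = 0.226) with HIPP and −0.069 ± 0.19 (limma adjusted p over all probes = 0.561) with P4. The probe on the 5′ side (52423274 to 52423333) had 0.90 ± 0.59 (limma adjusted p over all probes = 0.00157) with HIPP and 0.51 ± 0.47 (limma adjusted p over all probes = 0.0631) with P4. In shCtBP2 cells the middle probe was at −0.021 ± 0.16 (limma adjusted p over all probes = 0.896) and that on the 5′ side at −0.15 ± 0.29 (limma adjusted p over all probes = 0.676).

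BIK, PMAIP1 and BID completed the BH3-only group, and BID fell where the others rose with HIPP. BIK, a BH3-only protein of the endoplasmic reticulum measured by 1 probe (chromosome 22, 41849993 to 41850052), had log2 ratios of −0.22, −0.20, −0.47, −0.33 and −0.30 in shCtBP2 cells, with a mean of −0.30 ± 0.10 (n = 5, SD, limma adjusted p = 0.024). With HIPP they were 0.45, 0.31, 0.25, 0.40 and 0.42, with a mean of 0.36 ± 0.084 (n = 5, SD, limma adjusted p = 0.00198) and with P4 0.31, 0.11, 0.27, 0.031 and 0.55, with a mean of 0.26 ± 0.20 (n = 5, SD, limma adjusted p = 0.0281). BIK was thus lower on all shCtBP2 arrays and higher on all HIPP and P4 arrays, by small amounts. These calls depended on single arrays. In shCtBP2 cells BIK did not pass without replicate 3 (−0.26, limma adjusted p = 0.0912), 4 (−0.30, limma adjusted p = 0.0763) or 5 (−0.31, limma adjusted p = 0.0669), and with P4 it did not pass without replicate 1 (0.24, limma adjusted p = 0.0572), 3 (0.25, limma adjusted p = 0.0607) or 5 (0.18, limma adjusted p = 0.14). After normexp correction and loess BIK no longer passed with HIPP (0.11, limma adjusted p = 0.0812) or P4 (0.087, limma adjusted p = 0.172), and with slide as a block it passed in none of the treatments, at −0.38 (limma adjusted p = 0.0888) for shCtBP2, 0.24 (limma adjusted p = 0.0726) for HIPP and 0.46 (limma adjusted p = 0.075) for P4. By the methods' t-test it also passed in none of them, with adjusted p = 0.523, 0.0971 and 0.696 in that order, and with P4 it did not pass after centring each array (0.22, limma adjusted p = 0.0794) or with separate fits (limma adjusted p = 0.179). PMAIP1, which encodes NOXA, the antagonist of MCL1, was measured by 1 probe in 10 spots (chromosome 18, 55721258 to 55721317). The PMAIP1 log2 ratio was 0.83, 0.23, 0.50, 0.38 and 0.45 in shCtBP2 cells, with a mean of 0.48 ± 0.22 (n = 5, SD, limma adjusted p = 0.0456) and 0.78, 0.29, 0.78, −0.28 and 0.40 with HIPP, with a mean of 0.39 ± 0.44 (n = 5, SD, limma adjusted p = 0.0392). It was higher on 5 of 5 shCtBP2 arrays and 4 of 5 HIPP arrays. With P4 it was −0.33, 0.068, 0.28, −0.41 and −0.36, with a mean of −0.15 ± 0.31 (n = 5, SD), on both sides of 0. The rise of PMAIP1 in shCtBP2 cells lay at the threshold: it did not pass without any one of the 5 shCtBP2 arrays (0.39 without replicate 1 to 0.54 without replicate 2) and did not pass without the variability filter (limma adjusted p = 0.051), after centring each array (0.44, limma adjusted p = 0.0757) or with slide as a block (0.85, limma adjusted p = 0.0503). It also did not pass, at an unchanged mean, without HIPP replicate 2 or 5 or P4 replicate 4 or 5, which share the fit. With HIPP it did not pass without HIPP replicate 1, 2, 3 or 5 (0.30 without replicate 1 to 0.42 without replicate 2). Nor did the HIPP value pass after normexp correction and loess (0.36, limma adjusted p = 0.0545), after centring each array (0.33, limma adjusted p = 0.0888), with slide as a block (0.38, limma adjusted p = 0.121), with separate fits (limma adjusted p = 0.112) or by the methods' t-test (adjusted p = 0.333).

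BID, which caspase-8 cleaves to link death receptors to mitochondria, fell with both inhibitors. The BID log2 ratio was −1.08, −1.22, −1.20, −1.16 and −1.51 on the HIPP arrays, with a mean of −1.23 ± 0.16 (n = 5, SD, limma adjusted p = 2.43e-07), which is 42.5% of the control. On the P4 arrays it was −0.59, −0.60, −0.40, −0.92 and −0.58, with a mean of −0.62 ± 0.19 (n = 5, SD, limma adjusted p = 0.000473), or 65.1% of the control, which did not pass by the methods' t-test (adjusted p = 0.181). All 10 of these values were below 0. In shCtBP2 cells it was 0.022, 0.17, −0.21, −0.45 and −0.34, with a mean of −0.16 ± 0.25 (n = 5, SD, limma adjusted p = 0.335), positive on both arrays of slide 3 and negative on the 3 arrays of slide 4. Its 2 neighbouring probes on chromosome 22, from 16592736 to 16592795 and from 16592592 to 16592651, both fell with HIPP, by different amounts, at −0.83 ± 0.081 (limma adjusted p over all probes = 1.77e-06) and −1.64 ± 0.28 (limma adjusted p over all probes = 1.3e-07).

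Whether the members moved differently in the inhibitor arrays and the shCtBP2 arrays was tested on the differences themselves. The shCtBP2 cells were also stably transfected and selected with puromycin, whereas the inhibitors acted for 24 h. By the methods, the control cells differ as well. In these differences, inhibitor against silencing cannot be told apart from selection, duration or control. Between HIPP and shCtBP2, 7 members could be tested and 5 differed, BCL2L11, BBC3 and BIK being higher with HIPP and BCL2L1 and BID lower. Over all 24960 genes tested in both, 12.3% were higher and 14.1% lower with HIPP. BCL2L11 differed most, from a mean of −0.73 in shCtBP2 cells to 1.04 with HIPP, a difference of 1.76 (95% interval 1.30 to 2.23, limma adjusted p = 3.45e-05). After normexp correction and loess this difference was 0.49 (limma adjusted p = 0.0101) and that of BCL2L1 −0.40 (limma adjusted p = 0.0336). BID differed by −1.07 (95% interval −1.38 to −0.76, limma adjusted p = 7.15e-05) and BCL2L1 by −0.88 (95% interval −1.31 to −0.44, limma adjusted p = 0.0053), both lower with HIPP. BIK differed by 0.67 (95% interval 0.42 to 0.92, limma adjusted p = 0.00058) and BBC3 by 0.50 (95% interval 0.18 to 0.83, limma adjusted p = 0.0236), both higher with HIPP. On slide 3, the one slide with both treatments, HIPP replicates 4 and 5 minus shCtBP2 replicates 1 and 2 gave 1.63 for BCL2L11, −1.43 for BID, −0.39 for BCL2L1, 0.62 for BIK and 0.83 for BBC3, the same directions. With slide as a block the difference of BCL2L1 no longer passed (−0.39, limma adjusted p = 0.366). That of BBC3 did not pass without shCtBP2 replicate 1 or 5 or without HIPP replicate 2, 4 or 5, with values from 0.40 (without HIPP replicate 4) to 0.49 (without shCtBP2 replicate 5). PMAIP1 did not pass, at −0.083 (95% interval −0.53 to 0.36, limma adjusted p = 0.804), and neither did BCL2, at −0.23 (95% interval −0.53 to 0.069, limma adjusted p = 0.255).

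Between P4 and shCtBP2, 2 of 7 members differed, BCL2L11 and BIK, both higher with P4. Over all 24990 genes tested in both, 6.16% were higher and 5.97% lower. BCL2L11 differed by 0.87 (95% interval 0.40 to 1.34, limma adjusted p = 0.0186) and BIK by 0.56 (95% interval 0.31 to 0.81, limma adjusted p = 0.00577), without overlap between the arrays of the treatments. BCL2L1, at −0.59 (95% interval −1.03 to −0.15, limma adjusted p = 0.0793), BID, at −0.46 (95% interval −0.77 to −0.15, limma adjusted p = 0.0531), and BBC3, at 0.46 (95% interval 0.13 to 0.78, limma adjusted p = 0.0655), did not pass after adjustment, though their unadjusted intervals lay on one side of 0. With replicate number as a block 5 of 7 members differed, the other 3 being BCL2L1 (limma adjusted p = 0.0139), BID (limma adjusted p = 0.0383) and BBC3 (limma adjusted p = 0.0459). These 3 members also passed after normexp correction and loess, at −0.45 (limma adjusted p = 0.0239), −0.43 (limma adjusted p = 0.0493) and 0.49 (limma adjusted p = 0.0242), and with the filter on dim probes, with limma adjusted p = 0.0399, 0.0234 and 0.0298. MCL1 did not pass either, at −0.15 (95% interval −0.40 to 0.098, limma adjusted p = 0.458), nor did BCL2, at 0.039 (95% interval −0.26 to 0.34, limma adjusted p = 0.893). Over the 10 members the median difference was −0.063 for P4 and −0.085 for HIPP, beside 0.10 and 0.082 over all genes tested. After normexp correction and loess the difference of BCL2L11 did not pass (0.25, limma adjusted p = 0.196), and BIK was left out by the variability filter. P4 and shCtBP2 share no slide, and with slide as a block 0 members differed, BCL2L11 being at 0.62 (limma adjusted p = 0.481) and BIK at 0.84 (limma adjusted p = 0.087). Without P4 replicate 1, one of the pair of arrays that correlated least, BCL2L11 differed by 0.76 (limma adjusted p = 0.0391) and BIK by 0.55 (limma adjusted p = 0.0113), and the P4 means were −0.87 (limma adjusted p = 0.00145) for BCL2L1, −0.63 (limma adjusted p = 0.0017) for BID and 0.63 (limma adjusted p = 0.00226) for BBC3. Without P4 replicate 3, the other of that pair, these means were −1.06 (limma adjusted p = 3e-04), −0.67 (limma adjusted p = 0.000836) and 0.69 (limma adjusted p = 0.00101), and the differences of BCL2L1 (−0.69, limma adjusted p = 0.0451) and BID (−0.51, limma adjusted p = 0.0445) from shCtBP2 passed.

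**Figure D3:**
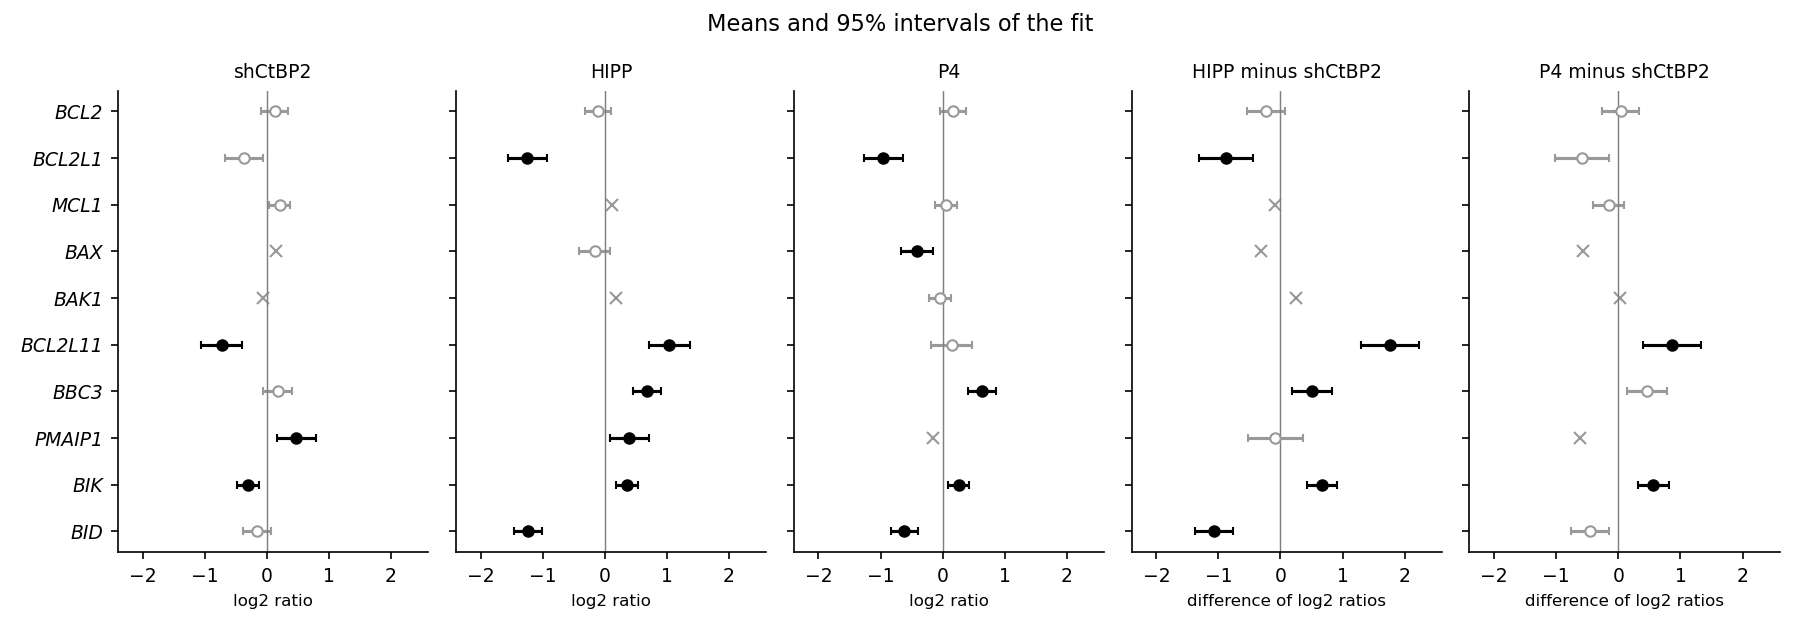
Mean log2 ratio of each member in the 3 treatments, and its difference between each inhibitor and shCtBP2 (x axes), with 95% intervals of the limma fit. Filled black points passed an adjusted p of 0.05, open grey points did not, and crosses are members left out by the variability filter; BCL2L11 lies left of 0 for shCtBP2 and right of 0 for HIPP.

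**Figure D4:**
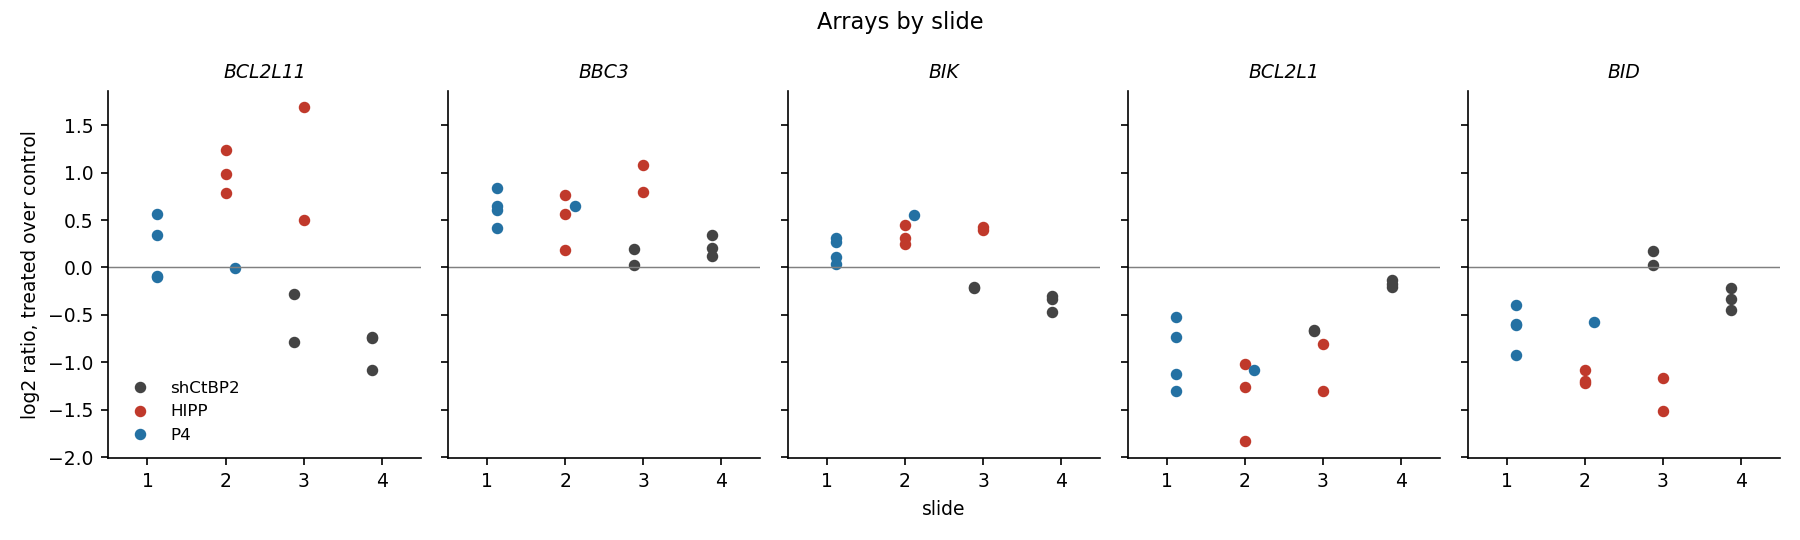
Log2 ratio (y axis) of the 5 members that differed between HIPP and shCtBP2, with 1 point for each array, by slide (x axis) and treatment (colour). On slide 3 the HIPP points lie above the shCtBP2 points for BCL2L11, BBC3 and BIK and below them for BCL2L1 and BID.

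Genes around the family were grouped in lists by role. Of 12 further BCL2 family genes, BMF alone was differentially expressed, and it rose with both inhibitors. The log2 ratio of BMF, a BH3-only gene, was 0.49, 1.65, 1.49, 1.73 and 2.33 on the HIPP arrays, with a mean of 1.54 ± 0.67 (n = 5, SD, limma adjusted p = 0.000133) and 2.07, 1.72, 1.00, 0.53 and 1.14 on the P4 arrays, with a mean of 1.29 ± 0.61 (n = 5, SD, limma adjusted p = 0.00135), always above 0. Its single probe was dim: it was well above background in the treated channel of 5 HIPP and 2 P4 arrays and in the control channel of 2 HIPP arrays and 1 P4 array, and in neither channel of any shCtBP2 array. Of the 12 genes 9 were tested with HIPP, 10 with P4 and 11 in shCtBP2 cells. At the adjusted threshold 3 were higher and 1 lower with HIPP, 2 and 1 with P4, and 1 and 1 in shCtBP2 cells. The list had a median of 0.19 with HIPP, 0.064 with P4 and 0.014 in shCtBP2 cells, to be read, like the counts and medians of the lists that follow, beside the shares and medians over all genes given above.

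Downstream of the mitochondria, a list of 16 genes held activators of caspases and their inhibitors together. Of these, of which 11 were tested with each inhibitor and 10 in shCtBP2 cells, 7 were lower and 1 higher at the adjusted threshold with HIPP, 7 were lower with P4, and 3 were lower and 1 higher in shCtBP2 cells. The shares over all genes tested were 23.9% lower and 24.9% higher with HIPP, 14.9% and 17.1% with P4, and 6.95% and 6.59% in shCtBP2 cells. BIRC2 and BIRC3, inhibitors of apoptosis, were among the lower genes in all 3 treatments, and BIRC5, which encodes survivin, with both inhibitors, whereas XIAP, a direct inhibitor of caspases, was the higher gene with HIPP. The apoptosome gene APAF1, ENDOG, which encodes a mitochondrial nuclease, and CYCS were lower with both inhibitors. VDAC1, which encodes a channel of the mitochondrial outer membrane, was lower with HIPP. Of the caspase genes, CASP6 was lower with P4, and in shCtBP2 cells CASP9 was higher and the mitochondrial protease gene HTRA2 lower. The genes of this list other than CYCS were named after their values were seen. The list's medians were −0.22, −0.20 and −0.075 for HIPP, P4 and shCtBP2. CYCS, which encodes cytochrome c, had log2 ratios of −0.36, −1.02, −1.06, −1.20 and −1.24 with P4, with a mean of −0.97 ± 0.36 (n = 5, SD, limma adjusted p = 0.000166), where it was differentially expressed. With HIPP its mean was −0.81 ± 0.38 (n = 5, SD, limma adjusted p = 0.000254) and in shCtBP2 cells −0.075 ± 0.18 (n = 5, SD, limma adjusted p = 0.784). In the list of 10 death receptor genes, 9 of them tested in each treatment, more rose than fell with the inhibitors, with 5 higher and 1 lower with HIPP, 4 and 2 with P4, and 1 and 1 in shCtBP2 cells, and medians of 0.31, 0.27 and 0.078. TNFRSF10A, a receptor for TRAIL, had log2 ratios of 1.01, 1.04, 1.49, 1.69 and 1.58 with HIPP, with a mean of 1.36 ± 0.31 (n = 5, SD, limma adjusted p = 2.68e-07) and a mean of 0.55 ± 0.14 (n = 5, SD, limma adjusted p = 0.00232) with P4. In shCtBP2 cells it was at −0.079 ± 0.24 (n = 5, SD, limma adjusted p = 0.718), and the difference from shCtBP2 was 1.44 (95% interval 1.09 to 1.79, limma adjusted p = 1.45e-05) with HIPP and 0.63 (95% interval 0.28 to 0.98, limma adjusted p = 0.0204) with P4. TNFRSF1A, a receptor for TNF, was differentially expressed in shCtBP2 cells, with log2 ratios of −0.72, −0.71, −0.44, −0.58 and −0.54, with a mean of −0.60 ± 0.12 (n = 5, SD, limma adjusted p = 0.00817). Its fold change of 1.51 lay just over the 1.5 required. TNFRSF1A was not tested with HIPP and did not pass with P4, and the difference between P4 and shCtBP2 was 0.93 (95% interval 0.53 to 1.33, limma adjusted p = 0.00481).

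Of 10 transcription factors and regulators known to act on BH3-only genes, 6 were higher at the adjusted threshold with HIPP, 5 with P4 and 2 in shCtBP2 cells, with 9, 10 and 10 tested. The medians were 0.64, 0.31 and 0.31. The genes of the integrated stress response led this group. ATF4, its main transcription factor, had log2 ratios of 1.34, 1.79, 1.61, 1.68 and 1.56 with HIPP, with a mean of 1.60 ± 0.17 (n = 5, SD, limma adjusted p = 4.88e-08) and 1.497, 1.30, 1.22, 1.69 and 1.82 with P4, with a mean of 1.51 ± 0.25 (n = 5, SD, limma adjusted p = 5.8e-07). Neither overlapped the shCtBP2 arrays, whose mean was 0.40 ± 0.26 (n = 5, SD, limma adjusted p = 0.0275). ATF3, induced by ATF4, reached 2.20 ± 0.57 (n = 5, SD, limma adjusted p = 3.3e-06) with HIPP and 1.07 ± 0.37 (n = 5, SD, limma adjusted p = 0.00384) with P4, against 0.26 ± 0.73 (n = 5, SD, limma adjusted p = 0.524) in shCtBP2 cells. TRIB3, another target of ATF4, had 1.46 ± 0.57 (n = 5, SD, limma adjusted p = 1.34e-05), 1.84 ± 0.45 (n = 5, SD, limma adjusted p = 7.58e-06) and 0.35 ± 0.16 (n = 5, SD, limma adjusted p = 0.234). DDIT3, which encodes CHOP, had 1.31 ± 0.75 (n = 5, SD, limma adjusted p = 0.000628) with HIPP, just under the fold change required, 0.88 ± 0.68 (n = 5, SD, limma adjusted p = 0.0169) with P4 and 0.34 ± 0.31 (n = 5, SD, limma adjusted p = 0.42) in shCtBP2 cells. The difference of ATF4 from shCtBP2 was 1.20 (95% interval 0.86 to 1.53, limma adjusted p = 5.21e-05) with HIPP and 1.11 (95% interval 0.77 to 1.44, limma adjusted p = 0.000387) with P4. That of TRIB3 was 1.11 (95% interval 0.55 to 1.66, limma adjusted p = 0.0052) with HIPP and 1.49 (95% interval 0.93 to 2.05, limma adjusted p = 0.00184) with P4. ATF3 differed from shCtBP2 with HIPP, by 1.94 (95% interval 1.21 to 2.66, limma adjusted p = 0.000611), whereas its difference with P4, 0.81 (95% interval 0.080 to 1.53, limma adjusted p = 0.146), did not pass. DDIT3 passed against shCtBP2 with neither inhibitor, at 0.97 (95% interval 0.20 to 1.74, limma adjusted p = 0.0609) for HIPP and 0.54 (95% interval −0.23 to 1.31, limma adjusted p = 0.387) for P4.

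A last list held 6 genes reported as repressed by CtBP, namely BAX, BIK and PMAIP1 of the family with PERP, CDKN1A and CDH1, the last of which was never well above background. In shCtBP2 cells 1 of them (PMAIP1) was higher and 1 (BIK) lower at the adjusted threshold, with a median of 0.058. With HIPP, where all 6 were tested, 3 were higher and 1 lower (median 0.38) and with P4 2 were higher and 2 lower (median 0.054). CDKN1A, which encodes the cell cycle inhibitor p21, was the one gene of the list differentially expressed. It had log2 ratios of 1.55, 1.21, 1.54, 1.03 and 1.29 with HIPP, with a mean of 1.32 ± 0.22 (n = 5, SD, limma adjusted p = 1.97e-06) and 0.40, 1.43, 1.49, 1.02 and 0.94 with P4, with a mean of 1.06 ± 0.44 (n = 5, SD, limma adjusted p = 7.17e-05). In shCtBP2 cells its mean was 0.35 ± 0.19 (n = 5, SD, limma adjusted p = 0.104), above 0 on 5 of 5 arrays without passing, and HIPP differed from shCtBP2 by 0.97 (95% interval 0.56 to 1.39, limma adjusted p = 0.00167) and P4 by 0.70 (95% interval 0.29 to 1.12, limma adjusted p = 0.0291). Of the 9 differentially expressed genes named from these lists, ATF4 and TRIB3 were still differentially expressed after normexp correction and loess, and the other 7 were not.

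**Figure D5:**
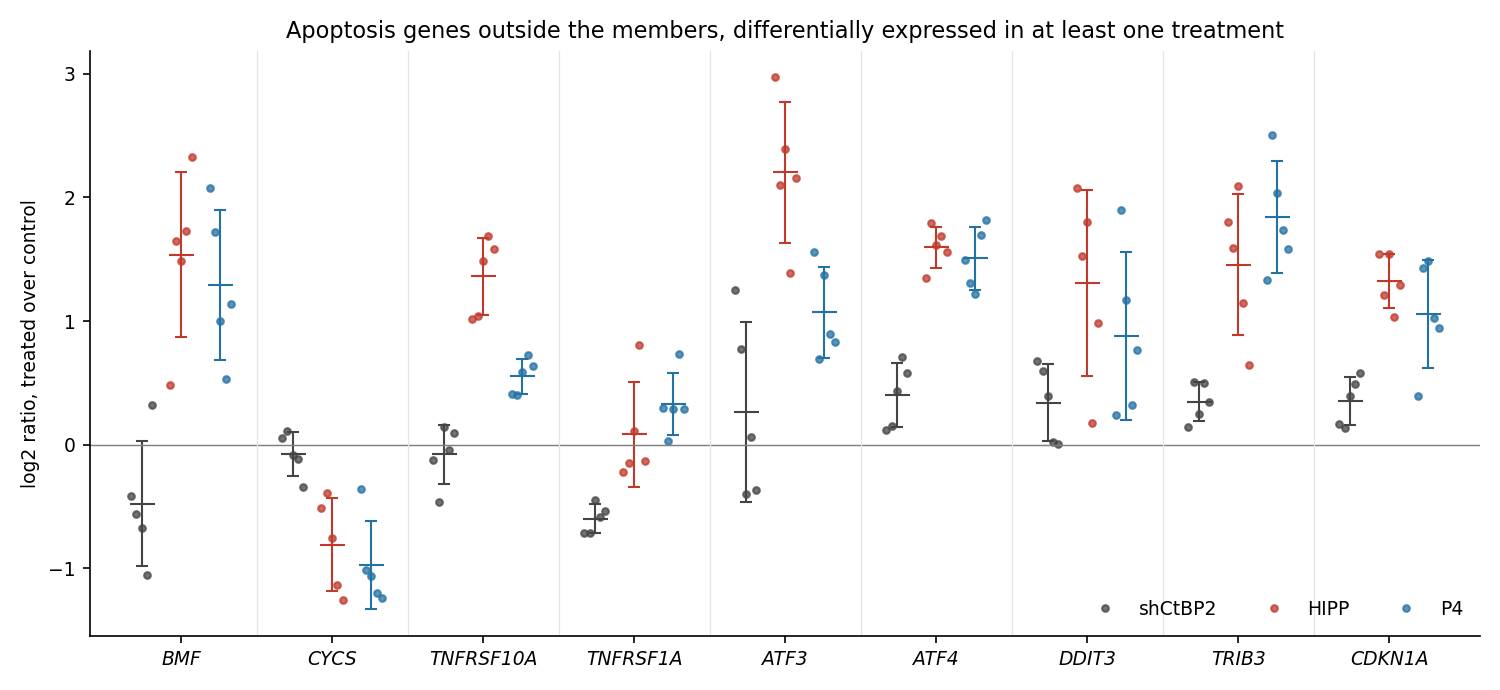
Log2 ratio of treated over control signal (y axis) for 9 genes outside the members that were differentially expressed in at least 1 treatment (x axis), with 1 point for each of 5 arrays, in order of replicate, and bars for the mean ± SD. ATF3, ATF4, TRIB3, CDKN1A and BMF lie above 0 on all HIPP and P4 arrays, and CYCS lies below 0.

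The genes whose log2 ratios over the 15 arrays came closest to those of the differentially expressed members were sought among 17457 genes with a current symbol, by the mean absolute difference. For BCL2L1 they were AKT1 (0.14), MKI67 (0.15) and CYC1 (0.19), with means of −1.10, −1.49 and −1.14 with HIPP, −0.90, −1.03 and −0.85 with P4 and −0.42, −0.29 and −0.30 in shCtBP2 cells. AKT1 encodes a survival kinase, MKI67 the proliferation marker Ki-67 and CYC1 a subunit of respiratory complex III. For BCL2L11 they were RGPD5 (0.21), NOS3 (0.22) and GCC2 (0.25), with means of 1.27, 1.09 and 1.11 with HIPP, 0.34, 0.21 and 0.29 with P4 and −0.60, −0.62 and −0.45 in shCtBP2 cells. NOS3 encodes the endothelial nitric oxide synthase.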

How the data were processed

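MDA-MB231 cells were profiled on 15 Agilent whole human genome arrays. The authors extracted spot intensities with Agilent Feature Extraction, which subtracts background and normalizes the dyes, and deposited processed signal intensities with flags. They also deposited log10 ratios of the same spots, used as an alternative only. The array annotation is on hg17. From the intensities, log2 of Cy5 over Cy3 was taken per spot, the 78 to 265 flagged gene spots per array were left out, and spots were averaged to probes and probes to genes. Of 41000 probes, 26826 have a current RefSeq symbol. Genes measured on at least 3 of 5 arrays were fitted with limma (version 3.58.1, lmFit and eBayes), all 15 arrays in one fit. P-values were adjusted by the Benjamini-Hochberg method over the 27579 genes tested, and for probes in a fit of all probes, chosen after seeing the data. The fit was tested on simulated data. Deviations of same-numbered arrays from their group means correlated at 0.139 to 0.352 for shCtBP2 and P4, all over 0.1. For shCtBP2 and HIPP they correlated at 0.0688 to 0.306, with replicate 4 alone under 0.1. These ranges overlap, and differently numbered arrays were not set beside them, so a pairing by replicate number was not established. The labels do not state a pairing, and replicate number as a block is an alternative only. Each treatment has 5 arrays, which limits the precision of every ratio, and p-values measure only the spread between these arrays. A control extract shared between arrays would leave out the spread between control samples. The members and the gene lists were chosen with earlier results of these data known. All members were named. Of the other lists, the differentially expressed genes were named, except for results that are not reported here, and for each differentially expressed member the 3 genes closest to it. The alternatives were normexp (offset 50) with loess, the log10 ratios, centring, the brightest probe, no variability filter, a filter on dim probes, slide or replicate number as a block, separate fits, the methods' t-test, a fold change of 1.5 throughout and leaving out each array.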

Additional observations from a re-analysis of the deposited data

Results flagged for a closer look

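Members whose log2 ratios differed between an inhibitor and shCtBP2 by the limma test of the difference are listed here. HIPP minus shCtBP2 was 1.76 for BCL2L11, −1.07 for BID, −0.88 for BCL2L1, 0.67 for BIK and 0.50 for BBC3. P4 minus shCtBP2 was 0.87 for BCL2L11 and 0.56 for BIK. The arrays of the treatments did not overlap for any of these except BBC3. Since these members were listed for passing that test, the lack of overlap is not further support. How many of all genes tested did not overlap was not counted, here or where overlap is given above. In each of the 30 sets of 5 arrays (10 members in 3 treatments), no array lay far enough from the others to be marked as an outlier by Dixon's test, which marks about 1 in 20 such sets by chance.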

How the results depend on the processing

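Limits come first. The dye orientation was the same on all arrays, slides and treatments overlap only in part, and 1 of the 4 BCL2L11 probes lay near background. The inhibitor and shCtBP2 arrays differ also in selection, duration and, by the methods, control cells. Where a call was lost, the cause was not tested. With normexp correction and loess, 0 members were differentially expressed in shCtBP2 cells and 0 with P4, 1 (PMAIP1) passed the adjusted threshold for shCtBP2, 5 differed between P4 and shCtBP2, none of them BCL2L11 or BIK (BAX, BBC3, BCL2L1, BID and PMAIP1), and 3 listed apoptosis genes outside the members were differentially expressed, against 10. Over all genes it left 269, 280 and 586 differentially expressed (shCtBP2, HIPP, P4), against 1812, 1943 and 2334, and moved the median of all genes with P4 from 0.107 to 0.00435. Blocking on slide left 0 members differentially expressed and 0 past the adjusted threshold for shCtBP2, 1 (BID) was differentially expressed with HIPP and 1 (BBC3, in place of BCL2L1) with P4, 2 (BBC3 and BID) passed with P4 and 0 differed between P4 and shCtBP2. The deposited log10 ratios gave 4 members that differed between P4 and shCtBP2, the filter on dim probes 6, and separate fits 3 members past the threshold with P4. With the brightest probe 1 member was differentially expressed with HIPP. With the methods' t-test 0 members were differentially expressed and 1 past the threshold in shCtBP2 cells, 3 past it with HIPP and 1 with P4, and 968, 1617 and 891 genes of all. With the fold change at 1.5 throughout, 4 members were differentially expressed with HIPP and 3 with P4, and 24 listed genes, and 8982 and 4830 genes of all with HIPP and P4. With probes kept apart, a setting chosen after seeing the data, members with at least 1 probe past both thresholds numbered 2 for shCtBP2, 2 for HIPP and 3 for P4, 5 passed the adjusted threshold in shCtBP2 cells and 5 differed between P4 and shCtBP2. A gene with more probes meets this rule more easily. No share over all genes was taken under it, and the gene shares above do not apply to these counts.

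Directions turned as follows. With the brightest probe BCL2 was at −0.066 in shCtBP2 cells, 0.75 with HIPP and 0.81 for HIPP minus shCtBP2, BAX at 0.80 with HIPP and 0.66 with P4, MCL1 at −0.052 with P4 and BBC3 at −0.15 in shCtBP2 cells. Blocking on slide put MCL1 at −0.16 with P4, and BID at 0.061 and BBC3 at −0.086 in shCtBP2 cells. PMAIP1 in HIPP minus shCtBP2 ran from −0.18 (without HIPP replicate 1) to 0.0047 without shCtBP2 replicate 1 and 0.087 without HIPP replicate 4. Centring each array moved the share of higher genes among those differentially expressed in shCtBP2 cells from 50.9 to 41.5%.

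Leaving out 1 array in turn gave 1 member differentially expressed in shCtBP2 cells and 1 with P4, and gave 0 to 1 with HIPP (BCL2L1 without HIPP replicate 4). Members past the adjusted threshold numbered 1 to 3 in shCtBP2 cells, the lowest without replicates 3, 4 or 5, 4 to 6 with HIPP and 3 to 5 with P4, the lowest without P4 replicate 5. Members that differed numbered 3 to 5 between HIPP and shCtBP2, the lowest without shCtBP2 replicate 1 or HIPP replicate 5, and 2 to 4 between P4 and shCtBP2, the highest without P4 replicate 3. Listed genes numbered 9 to 11.

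With the replicate block 5 members differed between P4 and shCtBP2, against 2, BCL2L1 passed in shCtBP2 cells, and no other member's call changed. Whether the numbers pair the arrays of different treatments was not established, and 7 of 15 arrays correlated best with their own number.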
